A study of Mus musculus with 12 samples.

Results

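Type I interferon-stimulated genes were followed as a list of 38 genes, taken by symbol from the 24062 genes of the count table, in messenger RNA sequencing libraries of sorted mouse CD4+ T cells. All 38 symbols were found and all 38 had enough counts to be tested. The 12 libraries form 6 groups of 2: regulatory T cells (Treg, CD4+GFP+) and conventional T cells (Tconv, CD4+GFP-) from the tumour of tumour-bearing (TB) mice, from the spleen of the same kind of mice, and from the spleen of normal mice. All mice are labelled C57BL/6, and the TB mice had received 500000 TC-1 cells, a transplantable tumour line derived from mouse lung epithelium, through the tail vein 3 weeks earlier. The reporter behind the GFP, the age and sex of the mice, and whether animals were pooled are not given in the sources used here. Separate mice are not stated for the 2 libraries of a group, so every p-value below measures the spread between libraries, which may be technical. Tumour-free tissue of the organ that bore the tumour was not among the groups, so a tumour effect and an organ effect cannot be told apart.

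Type I interferons bind a receptor made of Ifnar1 and Ifnar2, whose kinases Jak1 and Tyk2 activate Stat2. Stat2 works in a complex with Irf9 that binds interferon-stimulated response elements in the promoters of target genes, and Irf7, itself a target, feeds back on interferon production. Most of the 38 genes encode proteins that sense foreign nucleic acid, block viral replication or tag proteins with Isg15, and many also respond to interferon-gamma. T cells carry the receptor and transcribe these genes without being infected.

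Total counts were 18624132 to 24111546 per library. Foxp3, the lineage factor of Treg, ran from 989 to 1246 counts-per-million units (CPM) in the Treg libraries and from 11.5 to 19.6 CPM in the Tconv libraries, as the sort labels say. The 4 tumour libraries stood apart from the 8 spleen libraries in some marker sums of other cells and not in others. The sum of 8 fibroblast genes was 647 and 713 CPM in tumour Treg and 356 and 931 CPM in tumour Tconv, against at most 6.37 CPM in any spleen library. The sum of 14 macrophage and monocyte genes was 979 and 1165 CPM in tumour Treg and 664 and 910 CPM in tumour Tconv, against 291 to 501 CPM in spleen. All 8 and all 14 of these genes had reads in both tumour groups, whereas Col3a1, Dcn, Lum, Pdgfra and Sparc were at 0 in TB spleen Treg and Dcn, Lum and Pdgfra in TB spleen Tconv. The sum of 10 dendritic cell genes was 303 and 304 CPM in tumour Treg and 48.4 and 79.6 CPM in tumour Tconv, against 9.22 to 111 CPM in spleen. Lung and tumour epithelium genes (10 genes) summed to 91.8 to 169 CPM in the tumour libraries and to 2.86 to 28.4 CPM in spleen. The sum of 5 endothelium genes was lower in tumour Treg (106 and 128 CPM) than in spleen (198 to 329 CPM), and 255 and 258 CPM in tumour Tconv. Single genes went both ways. Of 4 tested, 2 were called higher and 1 lower in tumour Treg over TB spleen Treg (edgeR test described below). In tumour Tconv over TB spleen Tconv 3 were called higher and 1 lower. Over all tested genes 32.8% were higher and 28.7% lower in Treg, and 26.4% and 22.8% in Tconv. Cldn5 was at 0 in every spleen group and had reads in both tumour groups. The ranges of the B cell, CD8 T cell, NK cell and neutrophil sums overlapped between tumour and spleen. Over TB spleen, all 5 neutrophil genes were called higher in tumour Tconv and 2 of 5 in tumour Treg, with 0 lower. Of 2 CD8 T cell genes, 2 were called higher in tumour Treg and 0 in tumour Tconv. Of 4 tested NK cell genes 2 were higher and 2 lower in tumour Treg, and 1 higher and 2 lower in tumour Tconv. Of 2 tested B cell genes, 1 was called lower in tumour Tconv and 0 were called in tumour Treg. Immediate early and stress genes (15 genes) summed to 8381 to 11019 CPM in the tumour libraries and to 1354 to 2899 CPM in spleen. The part of these transcripts and of this stress signal in the results below was not tested. In bulk libraries fewer cells that express a gene and less RNA per cell cannot be told apart.

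Promoters show what the list shares in sequence. RefSeq promoter windows of GRCm38.p6 (mm10), each from 250 bases before to 50 bases after the gene start, were matched for 28 of the 38 genes. A response-element core, GAAANNGAAA on either strand, was present in 14 of the 28 genes (50%), against 3.85% of 16781 genes of the count table and 3.44% of 32851 promoters of that length in the table. A match is a stretch of letters and not a measured binding site, and a window without these letters says nothing about the factor. The windows below belong to 4 genes that were far higher in tumour Treg (Isg15, Ifit1, Ifit3, Bst2). The other 2, Eif2ak2 and Dtx3l, had no called change between tumour and TB spleen in the main fit, though both gained a call in some alternative runs. They are examples: of the genes with a window, a match was present in 10 of 18 called higher by at least 2-fold in tumour Treg and in 4 of 10 others. Ifitm1, Ifi44, Oasl2, Oasl1 and Cmpk2 rose in tumour Treg and hold none. Capitals mark GAAANNGAAA or its reverse complement, and each sequence runs 5′ to 3′ on the gene's own strand.
Isg15, chr4:156200769-156201068, minus strand: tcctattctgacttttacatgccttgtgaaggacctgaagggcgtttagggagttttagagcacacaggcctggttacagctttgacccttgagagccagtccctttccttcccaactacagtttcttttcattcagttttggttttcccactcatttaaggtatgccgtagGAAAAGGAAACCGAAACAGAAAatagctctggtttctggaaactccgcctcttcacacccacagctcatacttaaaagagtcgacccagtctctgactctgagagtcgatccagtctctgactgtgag
Ifit1, chr19:34640639-34640938, plus strand: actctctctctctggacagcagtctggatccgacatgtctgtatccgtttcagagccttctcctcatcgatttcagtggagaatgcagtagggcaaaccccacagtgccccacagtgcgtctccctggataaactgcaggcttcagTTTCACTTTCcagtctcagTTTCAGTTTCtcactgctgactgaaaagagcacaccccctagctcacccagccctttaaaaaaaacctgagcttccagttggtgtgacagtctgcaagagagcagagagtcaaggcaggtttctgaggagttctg
Ifit3, chr19:34583279-34583578, plus strand: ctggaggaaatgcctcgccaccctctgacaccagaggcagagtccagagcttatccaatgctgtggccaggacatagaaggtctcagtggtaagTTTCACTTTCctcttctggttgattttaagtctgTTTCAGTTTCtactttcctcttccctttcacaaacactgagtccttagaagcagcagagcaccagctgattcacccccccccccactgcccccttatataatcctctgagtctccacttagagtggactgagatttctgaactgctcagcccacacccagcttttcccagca
Bst2, chr8:71537423-71537722, minus strand: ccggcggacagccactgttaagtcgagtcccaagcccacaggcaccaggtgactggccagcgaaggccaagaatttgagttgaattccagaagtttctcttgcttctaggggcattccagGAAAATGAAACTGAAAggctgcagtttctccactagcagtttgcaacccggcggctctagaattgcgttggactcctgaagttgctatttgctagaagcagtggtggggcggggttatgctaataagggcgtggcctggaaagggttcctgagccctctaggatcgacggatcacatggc
Eif2ak2, chr17:78882523-78882822, minus strand: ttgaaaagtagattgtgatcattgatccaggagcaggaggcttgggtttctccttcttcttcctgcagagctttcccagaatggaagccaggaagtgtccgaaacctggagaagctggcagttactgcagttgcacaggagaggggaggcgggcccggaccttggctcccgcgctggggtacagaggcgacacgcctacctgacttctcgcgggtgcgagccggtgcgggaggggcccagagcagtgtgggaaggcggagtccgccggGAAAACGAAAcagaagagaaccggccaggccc
Dtx3l, chr16:35938978-35939277, minus strand: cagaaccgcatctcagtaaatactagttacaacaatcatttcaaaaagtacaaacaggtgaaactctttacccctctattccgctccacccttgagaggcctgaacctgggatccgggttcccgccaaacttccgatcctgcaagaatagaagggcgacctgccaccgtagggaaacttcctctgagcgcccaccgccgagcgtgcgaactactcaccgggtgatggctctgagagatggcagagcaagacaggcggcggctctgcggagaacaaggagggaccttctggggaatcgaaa

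The Isg15 window holds 3 overlapping matches, which begin 78, 72 and 66 bases before the start, and the Bst2 window holds 2 that begin 130 and 124 bases before it. The neighbouring Ifit1 and Ifit3 windows carry the same pair of words, TTTCACTTTC and TTTCAGTTTC, though at different distances from the start. Eif2ak2 holds a match 19 bases after its start and was not called between tumour and TB spleen in the main fit. Dtx3l holds no match.

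Across the 12 libraries the genes were highest in the tumour, and within the tumour in Treg. Summed over the 38 genes, the level was 5705 and 5748 CPM in tumour Treg and 4664 and 3980 CPM in tumour Tconv, against 3064 to 3551 CPM in the 8 spleen libraries. The group mean was highest in tumour Treg for 31 genes, in tumour Tconv for 3 (Oas2, Oasl2 and Ifitm1) and in a spleen group for 4 (Ddx58, Ifit2, Parp14 and Sp100). For 26 genes both tumour Treg libraries lay above all 10 others, which held for 18% of all tested genes. For 21 genes all 4 tumour libraries lay above all 8 spleen libraries, which held for 16% of all tested genes.

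**Figure D1:**
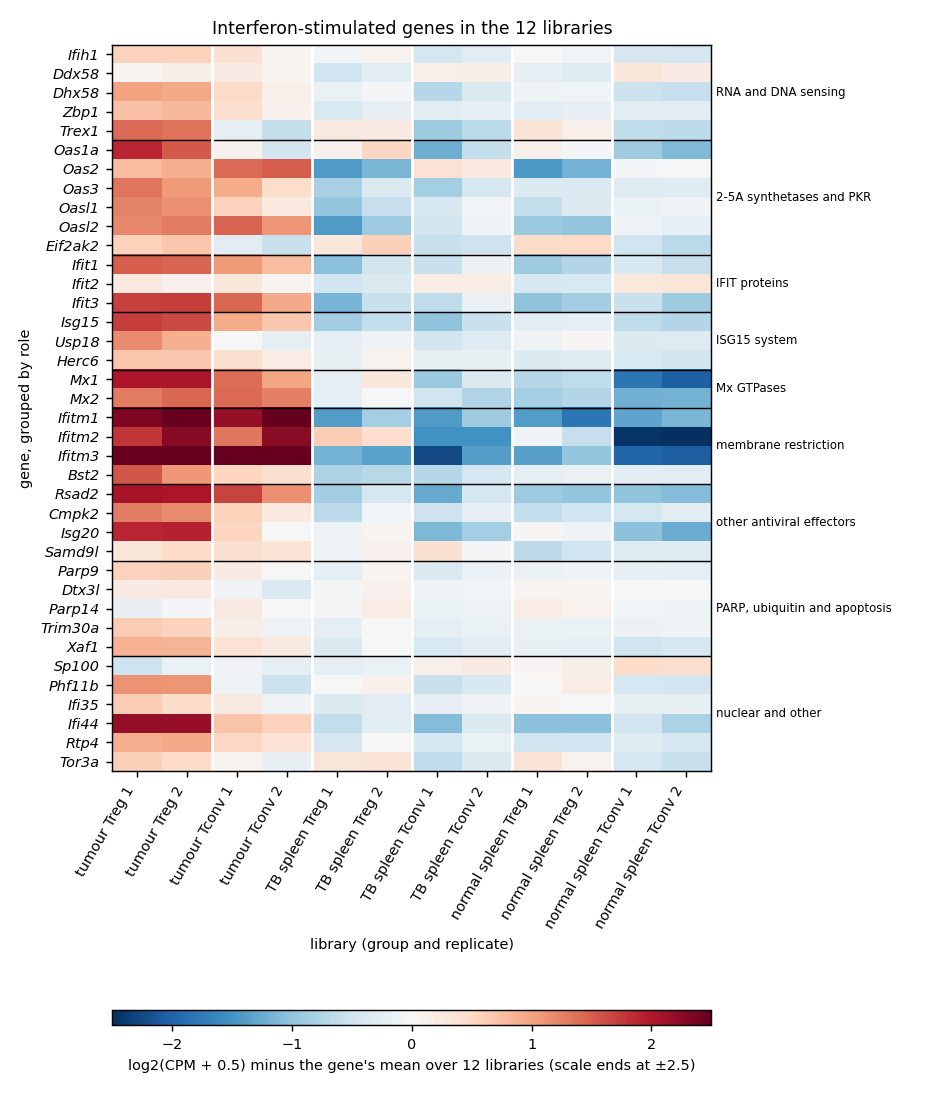
Level of the 38 genes (rows, grouped by role) in the 12 libraries (columns, 2 per group), as log2(CPM + 0.5) minus each gene's mean over the libraries, with the colour scale ending at ±2.5. The 2 tumour Treg columns are the reddest for most rows, while Sp100 and Parp14 do not follow that order and Oas2, Oasl2 and Ifitm1 are highest in tumour Tconv.

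Tumour Treg were compared with TB spleen Treg, and tumour Tconv with TB spleen Tconv, to ask how the genes differ between sites in TB mice. A gene is called at an adjusted p under 0.05 (edgeR quasi-likelihood F test, Benjamini-Hochberg over 13509 genes), and ± is the SE of a log2 fold change. In Treg, 33 of the 38 genes were higher in the tumour and 0 were lower, against 61.4% of all tested genes called, 32.8% higher and 28.7% lower. With scaling by library size, which shifts the all-gene median, Parp14 at -0.34 and Sp100 at -0.28 were called lower in Treg (adjusted p = 0.00599 and 0.02). In single omissions Sp100 was called lower without tumour Treg library 2, and Parp14 without tumour Tconv library 2 or TB spleen Treg library 1. In Tconv, 29 were higher and 1 was lower, against 49.1% of all tested genes called, 26.4% higher and 22.8% lower. The median log2 fold change of the list was 1.19 in Treg and 0.69 in Tconv, against 0.02 and 0.00 over all tested genes. A called increase of at least 2-fold was found for 25 genes in Treg and 15 in Tconv, against 17.2% and 16.3% of all tested genes. The 2 comparisons share no library, though the labels do not say whether Treg and Tconv came from different mice. Of the list, 27 genes were higher in both. The share of all tested genes higher in both was not computed, so that count has no background beside it. Eif2ak2 and Dtx3l were called in neither in the main fit. Dtx3l was called higher in Treg with DESeq2 size factors in the same test (0.23, adjusted p = 0.0391). The DESeq2 Wald test also called it higher there (0.23, adjusted p = 0.0237). With library-size scaling Dtx3l was called lower in Tconv (-0.24, adjusted p = 0.0221). Both genes gained a call in Treg in at least 1 omission of a library, where the change of Eif2ak2 ran from 0.03 to 0.36.

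All 3 genes of the Isg15 system were called higher in tumour Treg and in tumour Tconv over TB spleen, against 32.8% and 26.4% of all tested genes. Isg15, a small protein attached to others much as ubiquitin is, had 146 and 138 CPM in tumour Treg and 83.7 and 69.7 CPM in tumour Tconv, against 23.5 and 28.2 CPM in TB spleen Treg, 21.5 and 29.6 CPM in TB spleen Tconv, 35.6 and 36.7 CPM in normal spleen Treg and 27.9 and 25.9 CPM in normal spleen Tconv. The tumour groups did not overlap with any spleen group or with each other. Its log2 fold change was 2.46 ± 0.13 in Treg (adjusted p = 3.34e-08) and 1.58 ± 0.14 in Tconv (adjusted p = 2.12e-06). Usp18, the protease that removes Isg15 and dampens receptor signalling, had 109 and 88.0 CPM in tumour Treg and 47.3 and 41.0 CPM in tumour Tconv, against 34.3 to 48.6 CPM in the 8 spleen libraries. Only the Treg pair of the tumour stood clear of spleen, with log2 fold changes of 1.20 ± 0.11 in Treg and 0.29 ± 0.11 in Tconv (adjusted p = 1.53e-06 and 0.0465). The call in Tconv was lost when single libraries were left out, and also with limma-voom, library-size scaling or a replicate block. Herc6, the ligase that attaches Isg15 in mice, rose by 0.74 ± 0.09 in Treg and by 0.48 ± 0.09 in Tconv on the log2 scale.

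The IFIT genes, whose products bind viral RNA with foreign ends, did not move alike. Ifit1 had 280.0 and 273 CPM in tumour Treg and 208 and 170 CPM in tumour Tconv, against 47.3 and 71.5 CPM in TB spleen Treg, 67.3 and 89.2 CPM in TB spleen Tconv, 53.5 and 59.6 CPM in normal spleen Treg and 74.4 and 65.9 CPM in normal spleen Tconv. All 4 tumour libraries lay above every spleen library. Its log2 fold change was 2.22 ± 0.18 in Treg (adjusted p = 6.31e-07) and 1.27 ± 0.17 in Tconv (adjusted p = 7.36e-05). Ifit3 followed it, with 2.57 ± 0.21 in Treg and 1.61 ± 0.21 in Tconv, although a near-identical gene, Ifit3b, lies beside it and reads may be split between them. Ifit2 differed from both. It had 139 and 126 CPM in tumour Treg and 141 and 123 CPM in tumour Tconv, against 83.7 and 91.2 CPM in TB spleen Treg, 133 and 132 CPM in TB spleen Tconv, 87.9 and 89.2 CPM in normal spleen Treg and 139 and 143 CPM in normal spleen Tconv. Tumour Treg overlapped with tumour Tconv, while spleen Treg lay below every Tconv library. The change in Treg was 0.59 ± 0.08 on the log2 scale (adjusted p = 3.68e-05) and that in Tconv was 0.00 ± 0.08 (adjusted p = 0.966).

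In the group of 2-5A synthetases and PKR, 5 of 6 genes rose in tumour Treg and the same 5, all of the Oas family, in tumour Tconv. Over all tested genes 32.8% were higher in Treg and 26.4% in Tconv. The Oas enzymes make 2-5A, the activator of RNase L, when they meet double-stranded RNA. Oas2 had 21.3 and 23.5 CPM in tumour Treg and 33.4 and 35.7 CPM in tumour Tconv, against 4.29 and 5.25 CPM in TB spleen Treg, 15.8 and 14.7 CPM in TB spleen Tconv, 4.22 and 5.12 CPM in normal spleen Treg and 11.8 and 12.3 CPM in normal spleen Tconv. It was lower in Treg than in Tconv at each site, and its rise in the tumour was 2.23 ± 0.13 in Treg and 1.18 ± 0.12 in Tconv (adjusted p = 7.44e-08 and 8.48e-06). Oasl1, which in mice restrains the translation of Irf7, had 44.3 and 41.3 CPM in tumour Treg and 27.5 and 22.0 CPM in tumour Tconv, against 9.24 and 12.3 CPM in TB spleen Treg, 13.8 and 17.5 CPM in TB spleen Tconv, 12.004 and 14.5 CPM in normal spleen Treg and 16.3 and 17.3 CPM in normal spleen Tconv. Its log2 fold change was 1.99 ± 0.16 in Treg and 0.66 ± 0.16 in Tconv (adjusted p = 7.95e-07 and 0.00496). Oasl2 rose by 2.42 ± 0.17 in Treg and 1.56 ± 0.16 in Tconv, Oas3 by 1.78 ± 0.18 and 1.32 ± 0.18, and Oas1a by 1.41 ± 0.21 and 0.72 ± 0.23. Oas1a has near-identical neighbours such as Oas1g, so its reads are uncertain.

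Eif2ak2, the gene of that group outside the Oas family, encodes PKR, a kinase that stops translation on meeting double-stranded RNA. It had 97.7 and 106 CPM in tumour Treg and 53.7 and 44.0 CPM in tumour Tconv, against 79.2 and 99.2 CPM in TB spleen Treg and 44.1 and 45.6 CPM in TB spleen Tconv. Tumour and TB spleen overlapped within each cell type. The log2 fold changes were 0.19 ± 0.11 in Treg and 0.12 ± 0.12 in Tconv (adjusted p = 0.156 and 0.422). The gene separated the cell types instead, as described below.

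The genes for membrane restriction factors included the largest changes. Ifitm3, which hinders viral entry at endosomes, had 62.8 and 58.7 CPM in tumour Treg and 36.1 and 59.3 CPM in tumour Tconv, against 2.17 and 1.90 CPM in TB spleen Treg, 0.782 and 1.84 CPM in TB spleen Tconv, 1.88 and 2.63 CPM in normal spleen Treg and 1.02 and 0.953 CPM in normal spleen Tconv. The log2 fold change was 4.89 ± 0.28 in Treg and 5.15 ± 0.30 in Tconv (adjusted p = 4.39e-08 and 7.47e-08), and the Tconv value was 5.92 without TB spleen Tconv library 2. Ifitm1 had 192 and 247 reads in tumour Treg and 132 and 291 reads in tumour Tconv, against 0 to 11 reads in the 8 spleen libraries. Its log2 fold changes were 4.91 ± 0.52 and 5.03 ± 0.53, and they reached 5.82 without TB spleen Treg library 2 and 6.00 without TB spleen Tconv library 2. These genes are also transcribed in fibroblasts and myeloid cells, whose markers were higher in the same 4 libraries. In tumour Tconv, library 2 held more of both: Ifitm1, Ifitm2 and Ifitm3 were higher there than in library 1, and so were the fibroblast sum (931 against 356 CPM) and the macrophage sum (910 against 664 CPM). In tumour Treg both sums were also higher in library 2, as were Ifitm1 and Ifitm2, whereas Ifitm3 was lower. In TB spleen Tconv the log2 ratio of library 2 to library 1 was 1.12 for Ifitm1 and 1.15 for Ifitm3, with fibroblast sums of 0.782 and 0.673 CPM in libraries 1 and 2. The part of those cells in the Ifitm values was not tested.

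Ifitm2 split the spleen by cell type before it rose in the tumour. It had 20.5 and 28.8 CPM in tumour Treg and 14.6 and 28.6 CPM in tumour Tconv, against 8.71 and 7.62 CPM in TB spleen Treg, 1.62 and 1.62 CPM in TB spleen Tconv, 5.23 and 3.56 CPM in normal spleen Treg and 0.611 and 0.524 CPM in normal spleen Tconv. The log2 fold change was 1.59 ± 0.27 in Treg and 3.74 ± 0.34 in Tconv (adjusted p = 0.000317 and 3.21e-06). Of its exonic bases 40.9% also belong to the gene model Gm45717 on the same strand. Bst2, or tetherin, which holds budding viruses at the cell surface, had 186 and 136 CPM in tumour Treg and 92.2 and 84.0 CPM in tumour Tconv, against 37.2 to 56.4 CPM in the 8 spleen libraries. Tumour Treg lay above tumour Tconv and both lay above spleen. Its change was 2.07 ± 0.13 in Treg and 1.04 ± 0.13 in Tconv (adjusted p = 1.15e-07 and 4.69e-05). Bst2 also marks plasmacytoid dendritic cells. Their 4 other markers summed to 45.5 and 58.7 CPM in tumour Treg and 39.8 and 83.0 CPM in tumour Tconv, against 20.2 to 35.0 CPM in spleen. Of these 4, 2 were called higher and 1 lower in tumour Treg over TB spleen Treg, and 1 higher and 1 lower in tumour Tconv over TB spleen Tconv. The defining marker Siglech was at 0 in all 3 Treg groups and had reads in each of the 3 Tconv groups, in TB spleen Tconv from 1 library. The part of these cells in the Bst2 values was not tested.

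The Mx GTPases trap viral nucleoproteins, and laboratory strains such as C57BL/6 carry a defective Mx1 allele that is still transcribed. Mx1 had 49.2 and 49.7 CPM in tumour Treg and 31.6 and 23.5 CPM in tumour Tconv, against 9.77 and 14.3 CPM in TB spleen Treg, 5.94 and 9.02 CPM in TB spleen Tconv, 6.90 and 7.39 CPM in normal spleen Treg and 2.95 and 2.48 CPM in normal spleen Tconv. None of the 6 groups overlapped with its neighbour in this order except TB spleen Tconv with normal spleen Treg. The change between tumour and TB spleen was 2.04 ± 0.20 in Treg and 1.87 ± 0.21 in Tconv (adjusted p = 3.69e-06 and 1.93e-05). Mx2 rose by 1.57 ± 0.16 in Treg and by 2.10 ± 0.16 in Tconv.

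**Figure D2:**
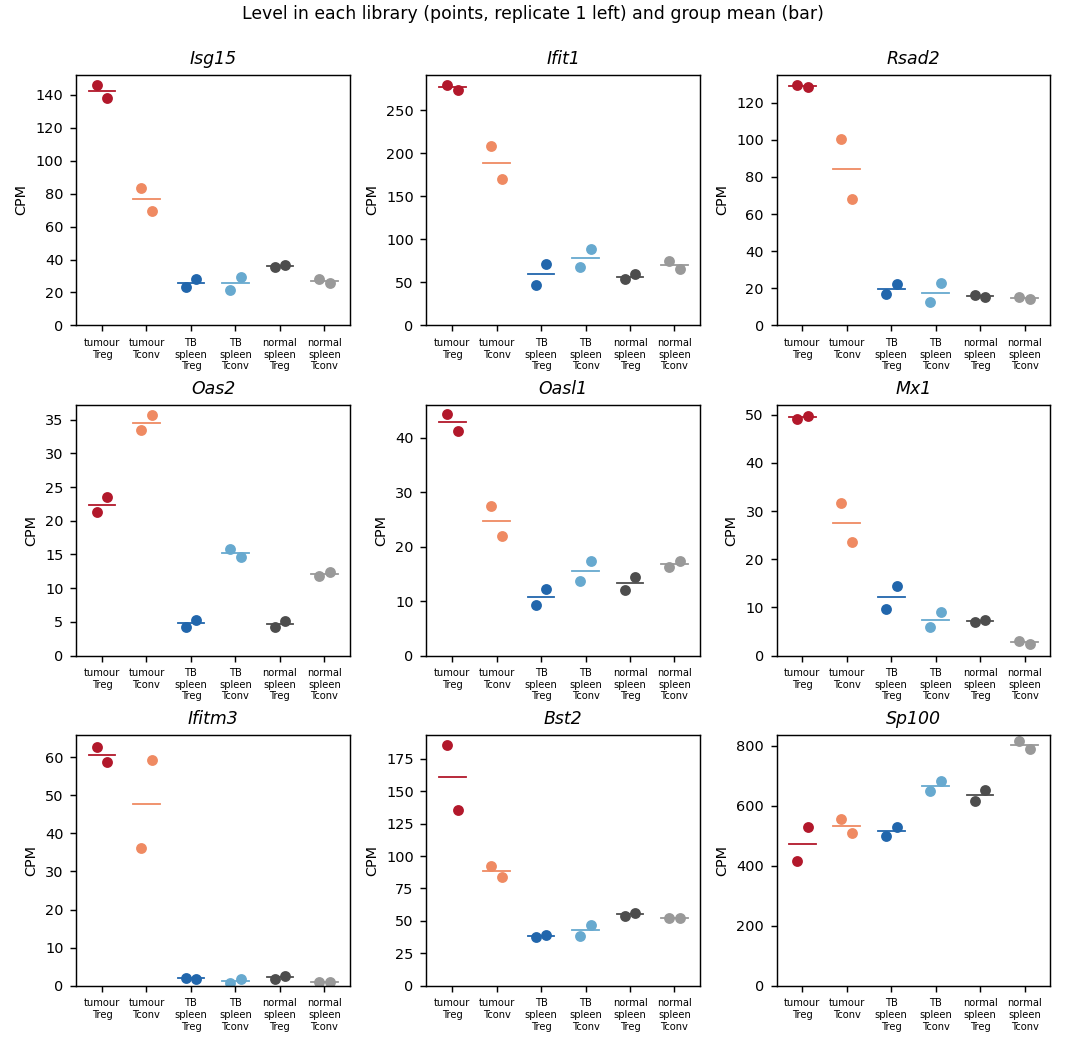
Level in CPM of 9 of the genes in each library (points) with the group mean (bar), for tumour, TB spleen and normal spleen, Treg left of Tconv, each axis from 0. Isg15, Ifit1, Rsad2, Oasl1, Mx1 and Bst2 are highest in tumour Treg, Oas2 is highest in tumour Tconv, and Sp100 is highest in normal spleen Tconv.

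Of the other antiviral effectors, Rsad2 (viperin, which makes a chain-terminating nucleotide) had 129 and 128 CPM in tumour Treg and 101 and 68.2 CPM in tumour Tconv, against 12.5 to 22.6 CPM in the 8 spleen libraries. Its log2 fold change was 2.72 ± 0.23 in Treg and 2.25 ± 0.23 in Tconv (adjusted p = 9.78e-07 and 8.42e-06), with the lower tumour Tconv library still above all spleen libraries. Cmpk2, the nucleotide kinase next to it on chromosome 12, rose by 1.59 ± 0.17 in Treg and 0.77 ± 0.17 in Tconv. Isg20, an exonuclease that degrades RNA, had 187 and 191 CPM in tumour Treg and 72.9 and 49.9 CPM in tumour Tconv, against 45.5 and 52.1 CPM in TB spleen Treg and 22.7 and 27.5 CPM in TB spleen Tconv. It was higher in Treg at each site, and rose by 1.96 ± 0.15 in Treg and 1.28 ± 0.16 in Tconv (adjusted p = 4.20e-07 and 3.19e-05). Samd9l, a growth-restraining translation inhibitor, was called in Treg at 0.38 ± 0.12 (adjusted p = 0.0157) and not in Tconv at 0.19 ± 0.12 (adjusted p = 0.21). The Treg call was lost without tumour Treg library 2 and without TB spleen Treg library 1.

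All 5 genes for nucleic acid sensing rose in tumour Treg, with a median log2 fold change of 1.06, against 0.52 in Tconv, where 4 were called. The all-gene shares called higher were 32.8% in Treg and 26.4% in Tconv. Dhx58 (LGP2) rose by 1.08 ± 0.12 in Treg and 0.84 ± 0.13 in Tconv, and Ifih1 (MDA5) by 0.56 ± 0.10 and 0.58 ± 0.10. Ddx58 (RIG-I), which recognises RNA with a triphosphate end, had 226 and 243 CPM in tumour Treg and 252 and 226 CPM in tumour Tconv, against 154 and 181 CPM in TB spleen Treg and 238 and 244 CPM in TB spleen Tconv. As with Ifit2, tumour Treg overlapped with tumour Tconv, and the change was 0.48 ± 0.08 in Treg and -0.01 ± 0.08 in Tconv (adjusted p = 0.000356 and 0.912). Zbp1, a sensor of left-handed nucleic acid, rose by 1.06 ± 0.09 in Treg and 0.52 ± 0.09 in Tconv. Trex1, the exonuclease that clears cytosolic DNA, had 86.2 and 83.4 CPM in tumour Treg and 28.0 and 21.3 CPM in tumour Tconv, against 37.6 and 37.1 CPM in TB spleen Treg and 17.1 and 19.9 CPM in TB spleen Tconv. Its change was 1.18 ± 0.11 in Treg and 0.40 ± 0.12 in Tconv (adjusted p = 2.90e-06 and 0.0176). All exonic bases of Trex1 also belong to Atrip on the same strand in the annotation, so its reads are uncertain.

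Among the PARP, ubiquitin and apoptosis genes 3 of 5 rose in tumour Treg, against 32.8% of all tested genes. Xaf1, a pro-apoptotic protein, rose by 1.05 ± 0.10 in Treg and 0.64 ± 0.11 in Tconv, and Parp9 by 0.67 ± 0.10 and 0.35 ± 0.10. Dtx3l, the ubiquitin ligase that partners Parp9 and is transcribed from the opposite strand beside it, had 341 and 343 CPM in tumour Treg and 277 and 228 CPM in tumour Tconv, against 283 and 315 CPM in TB spleen Treg and 273 and 281 CPM in TB spleen Tconv. Its changes of 0.19 ± 0.08 and -0.13 ± 0.09 were not called (adjusted p = 0.0649 and 0.217). Parp14, an ADP-ribosyltransferase, was called in Tconv at 0.27 ± 0.09 (adjusted p = 0.0333) and not in Treg at -0.18 ± 0.09 (adjusted p = 0.114). Trim30a, a regulator of innate signalling, rose by 0.70 ± 0.10 in Treg, and its change of 0.22 ± 0.10 in Tconv was not called (adjusted p = 0.0852).

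Of the remaining genes, Ifi44 had 62.7 and 61.3 CPM in tumour Treg and 21.9 and 20.0 CPM in tumour Tconv, against 5.99 to 10.7 CPM in the 8 spleen libraries. The tumour groups stood clear of each other and of spleen, with changes of 2.69 ± 0.19 in Treg and 1.36 ± 0.19 in Tconv (adjusted p = 2.15e-07 and 0.000116). Rtp4, a chaperone-like transporter protein, rose by 1.13 ± 0.12 and 0.73 ± 0.12. Phf11b had 139 and 138 CPM in tumour Treg and 58.8 and 43.5 CPM in tumour Tconv, against 64.1 and 69.1 CPM in TB spleen Treg and 43.1 and 48.1 CPM in TB spleen Tconv. Tumour Tconv overlapped with TB spleen Tconv, and the change was 1.06 ± 0.12 in Treg and 0.16 ± 0.12 in Tconv (adjusted p = 8.98e-06 and 0.303). Ifi35 likewise rose by 0.86 ± 0.10 in Treg, with 0.23 ± 0.10 in Tconv not called (adjusted p = 0.0723). Tor3a, a torsin-family ATPase, was called in Tconv at 0.44 ± 0.12 and not in Treg at 0.23 ± 0.11 (adjusted p = 0.00754 and 0.0903).

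Sp100, a component of nuclear bodies, went against the list. It had 416 and 531 CPM in tumour Treg and 558 and 511 CPM in tumour Tconv, against 500.4 and 529 CPM in TB spleen Treg, 651 and 684 CPM in TB spleen Tconv, 616 and 654 CPM in normal spleen Treg and 817 and 791 CPM in normal spleen Tconv. It fell in tumour Tconv by 0.32 ± 0.10 on the log2 scale (adjusted p = 0.0163), and its change of -0.12 ± 0.10 in Treg was not called (adjusted p = 0.303). Mice carry several near-identical Sp100 copies, so its reads are uncertain.

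**Figure D3:**
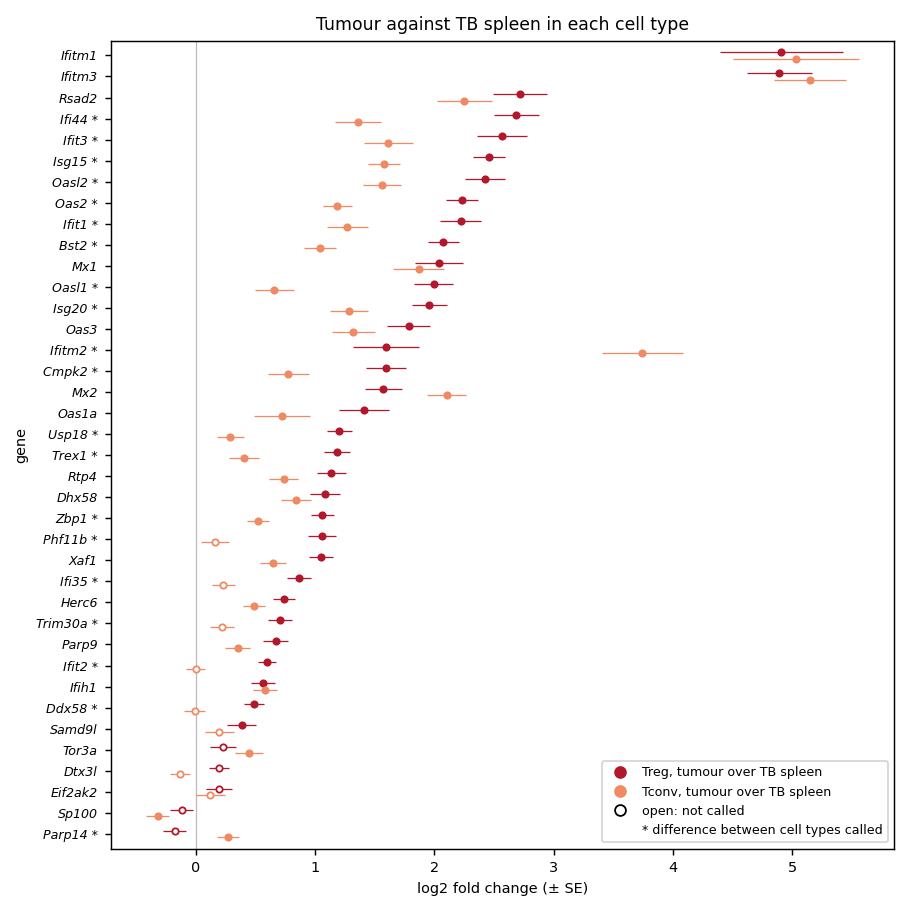
Log2 fold change (± SE, horizontal axis) of each gene in tumour over TB spleen, for Treg (dark) and Tconv (light), sorted by the Treg value, with open points not called and an asterisk where the difference between cell types was called. Treg points lie right of Tconv points for 31 of the 38 genes, and Ifitm2 is the farthest in the other direction.

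The difference between the cell types in this site change was tested as an interaction, tumour over TB spleen in Treg minus the same in Tconv. It was called for 20 genes, 18 with the larger log2 change in Treg and 2 with the larger one in Tconv, against 24.7% of all tested genes called, 11.7% and 13.1% by direction. The median interaction of the list was 0.48, against -0.03 over all tested genes. The largest on the Treg side were Oasl1 at 1.34 ± 0.23 (adjusted p = 0.0014), Ifi44 at 1.33 ± 0.27 (adjusted p = 0.00389), Oas2 at 1.05 ± 0.18 (adjusted p = 0.0015) and Bst2 at 1.04 ± 0.19 (adjusted p = 0.00186). All 3 IFIT genes were among them, at 0.60 to 0.96. On the Tconv side were Ifitm2 at -2.15 ± 0.44 (adjusted p = 0.00427) and Parp14 at -0.45 ± 0.13 (adjusted p = 0.0283). Ddx58, Ifit2, Trim30a, Phf11b and Ifi35, called between sites in Treg and not in Tconv, were all called here, whereas Samd9l was not, at 0.19 ± 0.17 (adjusted p = 0.471). Neither Mx gene was called, and Rsad2 was not called at 0.47 ± 0.32 (adjusted p = 0.316). Of the 20 calls, 12 were kept whichever library was left out: Ddx58, Trex1, Oas2, Oasl1, Ifit2, Isg15, Usp18, Ifitm2, Bst2, Phf11b, Ifi35 and Ifi44. The number of calls was 13 without TB spleen Tconv library 2.

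Treg were set against Tconv within each site to see how the genes differ between the cell types. In the tumour 27 genes were higher in Treg and 1 (Oas2) was lower, against 53.9% of all tested genes called, 27.2% higher and 26.7% lower. In TB spleen 11 were higher and 6 lower, against 40.3% of all tested genes called, 21% higher and 19.4% lower. In normal spleen 13 were higher and 5 lower, against 40.6% of all tested genes called, 21.8% higher and 18.7% lower. The median log2 difference of the list was 0.51 in the tumour, 0.12 in TB spleen and 0.09 in normal spleen, with all-gene medians of 0.00 at each site. The 3 comparisons share no library, though the labels do not say whether tumour and TB spleen cells came from different mice.

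Some genes were higher in Treg wherever the cells came from. Oas1a, Trex1, Isg20, Phf11b, Eif2ak2, Tor3a, Mx1, Dhx58 and Ifih1 were higher in Treg at all 3 sites, although the calls of Ifih1 at each site, of Dhx58 in both spleens and of Mx1 in TB spleen were lost when 1 library was left out. Eif2ak2 differed by a similar amount at each site: 1.06 ± 0.11 in the tumour, 0.99 ± 0.11 in TB spleen and 1.07 ± 0.12 in normal spleen (adjusted p = 6.51e-06, 2.00e-05 and 1.04e-05). In normal spleen Eif2ak2 stood at 90.1 and 92.1 CPM in Treg and 46.1 and 40.6 CPM in Tconv. Isg20 differed by 1.63 ± 0.15 in the tumour, 0.96 ± 0.16 in TB spleen and 1.12 ± 0.16 in normal spleen. Oas1a had 116 and 88.9 CPM in tumour Treg, against 32.9 and 22.0 CPM in tumour Tconv, a difference of 1.91 ± 0.22 (adjusted p = 1.04e-05), and 1.22 ± 0.23 in TB spleen.

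A second set was lower in Treg than in Tconv in spleen and was not called in the tumour: Ddx58, Ifit2, Oasl2 and Sp100. For Sp100 the tumour difference was -0.17 ± 0.10 (adjusted p = 0.157), it was called at -0.36 without tumour Treg library 2 (adjusted p = 0.00321), and its calls in both spleens were lost when 1 library was left out. For Oasl2 the difference was -0.04 ± 0.15 in the tumour (adjusted p = 0.854), -0.91 ± 0.17 in TB spleen (adjusted p = 0.000961) and -0.82 ± 0.17 in normal spleen (adjusted p = 0.00182). Oasl2 had 82.5 and 88.1 CPM in tumour Treg, against 98.9 and 77.0 CPM in tumour Tconv, so the 2 groups overlapped. For Ifit2 the difference was 0.00 ± 0.08 in the tumour, -0.60 ± 0.08 in TB spleen and -0.67 ± 0.08 in normal spleen. The interaction test above called Ddx58, Ifit2 and Oasl2 and not Sp100 (0.20 ± 0.14, adjusted p = 0.326). Oasl1 changed sides: its log2 difference was 0.80 ± 0.15 in the tumour (adjusted p = 0.000759) and -0.54 ± 0.17 in TB spleen (adjusted p = 0.0214). That spleen call is among 6 that were lost when 1 library was left out.

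A further 16 genes were higher in tumour Treg than in tumour Tconv with no call at either spleen site except for Oasl1 in TB spleen: Zbp1, Oas3, Oasl1, Ifit1, Ifit3, Herc6, Bst2, Rsad2, Cmpk2, Parp9, Dtx3l, Trim30a, Xaf1, Ifi35, Ifi44 and Rtp4. The share of all tested genes with this pattern was not computed, so that count has no background beside it. Among the 16, Oas3, Ifit1, Ifit3 and Rsad2 lost the call when 1 library was left out. Bst2 kept its call, at 0.87 ± 0.13 in the tumour, -0.17 ± 0.14 in TB spleen and 0.09 ± 0.13 in normal spleen (adjusted p = 8.50e-05, 0.36 and 0.652). Its tumour difference was above the list's median of 0.51, and its 2 tumour Treg libraries differed by -0.45 on the log2 scale (library 2 over library 1). Isg15 and Usp18 were also higher in normal spleen Treg, by 0.43 ± 0.14 and 0.31 ± 0.11 (adjusted p = 0.0258 and 0.0394), but both calls were lost without any 1 of the 4 normal spleen libraries, and that of Usp18 also with DESeq2 and limma-voom. Ifitm2 showed the opposite layout, higher in Treg by 2.33 ± 0.35 in TB spleen and 2.95 ± 0.45 in normal spleen, with 0.18 ± 0.26 in the tumour (adjusted p = 0.602).

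**Figure D4:**
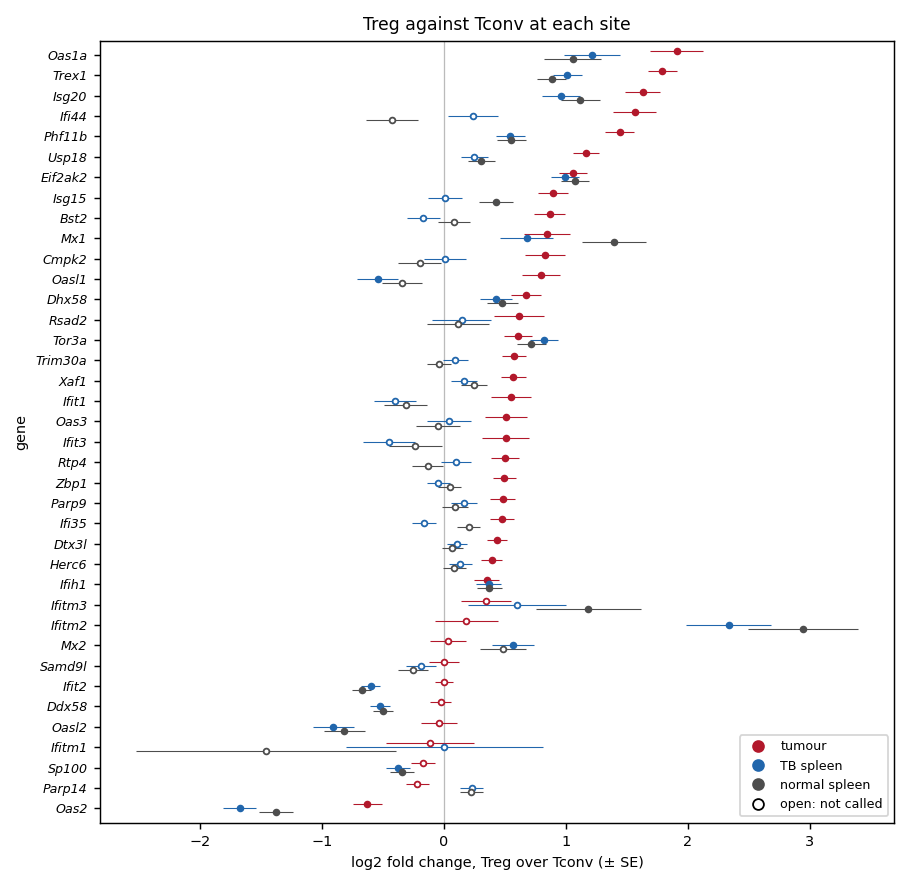
Log2 fold change of Treg over Tconv (± SE, horizontal axis) for each gene in the tumour, TB spleen and normal spleen, sorted by the tumour value, with open points not called. Genes such as Eif2ak2 keep the same difference at all 3 sites, Ddx58, Ifit2 and Oasl2 are near 0 in the tumour and below 0 in both spleens, and Ifi44 and Bst2 differ mainly in the tumour.

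TB spleen was set against normal spleen to ask whether a tumour elsewhere in the body goes with a change of the genes in spleen T cells. These comparisons use the same TB spleen libraries as the site comparisons. In Treg 4 genes were higher and 3 lower, against 15.3% of all tested genes called, 6.8% higher and 8.5% lower. In Tconv 3 were higher and 0 lower, against 17.2% of all tested genes called, 9.74% higher and 7.49% lower. The share called is near that of all genes in Treg and below it in Tconv, and the list's median log2 fold change was 0.01 in Treg and 0.04 in Tconv. Mx1, Mx2 and Samd9l were higher in TB spleen in both cell types. Mx1 differed by 0.75 ± 0.22 in Treg (adjusted p = 0.0363) and by 1.47 ± 0.27 in Tconv (adjusted p = 0.00319). Samd9l had 175 and 207 CPM in TB spleen Treg and 249 and 185 CPM in TB spleen Tconv, against 122 and 136 CPM in normal spleen Treg and 153 and 153 CPM in normal spleen Tconv. Its log2 fold change was 0.57 ± 0.12 in Treg (adjusted p = 0.00981) and 0.50 ± 0.12 in Tconv (adjusted p = 0.0158).

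Isg15, Bst2 and Ifi35 were lower in TB spleen Treg than in normal spleen Treg. Isg15 fell by 0.48 ± 0.14, Bst2 by 0.53 ± 0.13 and Ifi35 by 0.33 ± 0.10 on the log2 scale (adjusted p = 0.0327, 0.0203 and 0.04), and Herc6 rose by 0.30 ± 0.09 (adjusted p = 0.0488). None of the 7 calls in Treg was kept through every omission of a library: 0 were left without TB spleen Treg library 2 and 0 without normal spleen Treg library 1. Of the 3 calls in Tconv, Mx1 alone was kept. The difference between cell types in this comparison was called for 0 genes of the list by edgeR and by DESeq2 (2 genes at an unadjusted p under 0.05), against 0.851% of all tested genes.

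The 2 libraries of a group differed in a way that ran through the list. In TB spleen Treg 35 of the 38 genes were higher in library 2, with a median log2 ratio of 0.26, and in TB spleen Tconv 33 were, with a median of 0.22. Over all tested genes library 2 was higher for 50.1% and 51.5%, and the median ratio was 0.00 and 0.01. In tumour Tconv the genes also differed together, with 4 higher in library 2 and a median of -0.27, against 54.7% of all tested genes. The labels do not say whether libraries of the same number belong together across groups, so only the size of these differences is compared. In tumour Treg 17 genes were higher in library 2, in normal spleen Treg 22 and in normal spleen Tconv 13, with medians of -0.01, 0.02 and -0.04. The shares of all tested genes were 54.2%, 47.8% and 52%, with medians of 0.02, 0.00 and 0.00. The immediate early and stress sum also differed within TB spleen, at 2628 and 1601 CPM in Treg libraries 1 and 2 and 2899 and 1354 CPM in Tconv libraries 1 and 2. In TB spleen the library with the higher stress sum thus had the lower summed level of the 38 genes, as it did in normal spleen Tconv, whereas in tumour Treg, tumour Tconv and normal spleen Treg it had the higher summed level. In tumour Tconv, libraries 1 and 2 had stress sums of 11019 and 9555 CPM and summed levels of 4664 and 3980 CPM. The part of the stress signal in the fold changes was not tested. Leaving out each library in turn gave 2.33 to 2.59 for Isg15 and 1.95 to 2.55 for Ifit1 in Treg, and 1.37 to 1.83 and 1.08 to 1.48 in Tconv.

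**Figure D5:**
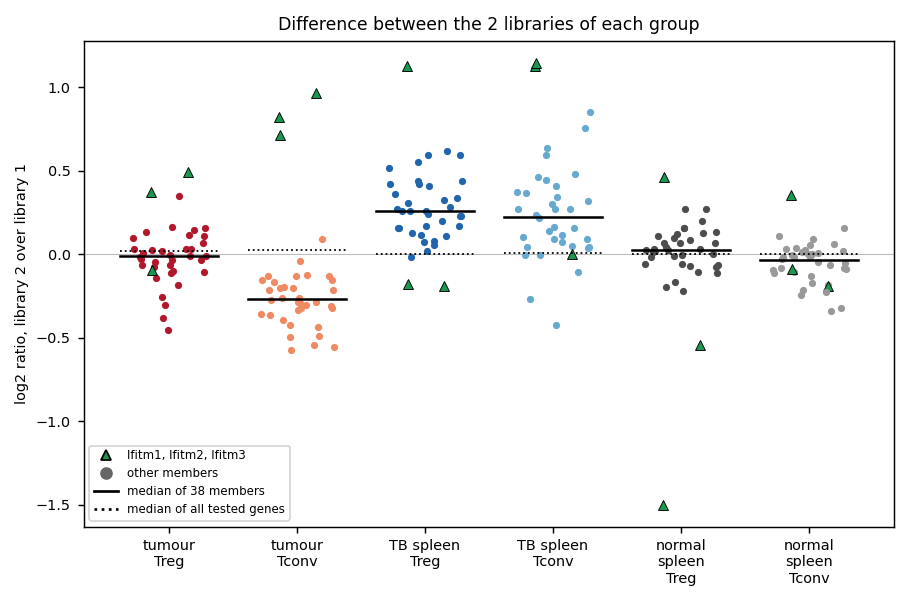
Log2 ratio of library 2 over library 1 (vertical axis) in each of the 6 groups for the 38 genes, with Ifitm1, Ifitm2 and Ifitm3 as triangles, the list's median as a solid bar and the median of all tested genes as a dotted bar. The list sits above 0 in both TB spleen groups and below 0 in tumour Tconv, where the 3 Ifitm genes go the other way.

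Per kilobase of exon, so that genes can be compared with each other, Isg15 had the highest mean level of the list in tumour Treg and tumour Tconv (188 and 101 CPM per kb), followed by Bst2 (178 and 97.6 CPM per kb). In all 4 spleen groups Sp100 came first, at 68.1 CPM per kb in TB spleen Treg, 88.3 in TB spleen Tconv, 84.0 in normal spleen Treg and 106 in normal spleen Tconv. Isg15 ranked 10 of 38 in TB spleen Treg, at 34.2 CPM per kb. Ifitm3 ranked 8 of 38 in tumour Treg at 89.6 CPM per kb and 33 in TB spleen Treg at 3.00 CPM per kb.

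The pathway around the list was read from gene sets made for this purpose. Of 9 interferon ligand genes 6 had 0 reads in every library. Ifnb1, the type I ligand made by many cells, had 0 and 2 reads in tumour Treg, 0 and 1 in tumour Tconv, and 0 in all spleen libraries, which a count of this size does not distinguish from 0. Ifng, the only ligand gene with enough reads to test, had 3.08 and 3.58 CPM in tumour Treg and 11.6 and 11.4 CPM in tumour Tconv, against 1.72 and 0.973 CPM in TB spleen Treg and 8.03 and 5.83 CPM in TB spleen Tconv. It was lower in Treg than in Tconv at each site, and higher in the tumour by 1.30 ± 0.28 in Treg and 0.73 ± 0.23 in Tconv (adjusted p = 0.00161 and 0.0195).

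Receptor and kinase genes were called in both directions, as genes in general were (32.8% higher and 28.7% lower in Treg, 26.4% and 22.8% in Tconv). Of 8 tested, 5 were higher and 2 lower in tumour Treg, and 4 were higher and 2 lower in tumour Tconv. Ifnar1 had 369 and 448 CPM in tumour Treg and 345 and 367 CPM in tumour Tconv, against 304 and 313 CPM in TB spleen Treg and 217 and 208 CPM in TB spleen Tconv, and rose by 0.41 ± 0.09 in Treg and 0.74 ± 0.09 in Tconv. Ifnar2, its partner chain, had 80.1 and 87.1 CPM in tumour Treg and 82.0 and 74.5 CPM in tumour Tconv, against 139 and 128 CPM in TB spleen Treg and 98.2 and 98.8 CPM in TB spleen Tconv. It fell by 0.68 ± 0.07 in Treg and by 0.33 ± 0.07 in Tconv (adjusted p = 6.03e-06 and 0.00212), so the chains of the type I receptor changed in opposite directions in both cell types. Ifngr1 rose by 0.86 ± 0.10 in Treg and 1.75 ± 0.11 in Tconv, and Ifngr2 by 0.31 ± 0.11 and 2.71 ± 0.11. Jak2, which serves the interferon-gamma receptor, rose by 0.42 ± 0.09 and 0.26 ± 0.09.

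Of 9 tested transcription factors of the pathway, 6 were higher and 1 lower in tumour Treg, and 4 were higher and 1 lower in tumour Tconv, against the same all-gene shares. Irf7, the target that drives interferon genes, had 405 and 352 CPM in tumour Treg and 287 and 211 CPM in tumour Tconv, against 70.0 and 92.5 CPM in TB spleen Treg, 95.9 and 110 CPM in TB spleen Tconv and 64.9 to 73.1 CPM in normal spleen. Its log2 fold change was 2.22 ± 0.15 in Treg and 1.27 ± 0.15 in Tconv (adjusted p = 2.00e-07 and 2.45e-05). Stat2 rose by 0.29 ± 0.10 in Treg, with 0.19 ± 0.10 in Tconv not called. Irf9 was not called, at -0.19 ± 0.09 and -0.12 ± 0.09 (adjusted p = 0.0849 and 0.304). Irf8 rose by 1.42 ± 0.10 and 0.75 ± 0.12, Irf1 by 0.72 ± 0.09 and 0.74 ± 0.09, and Irf3, the factor downstream of nucleic acid sensors, fell by 0.49 ± 0.07 and 0.59 ± 0.07.

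Of 10 nucleic acid sensing adaptor genes 3 were higher and 5 lower in tumour Treg, and 1 was higher and 6 lower in tumour Tconv, against the same all-gene shares of 32.8% and 28.7% in Treg and 26.4% and 22.8% in Tconv. Mavs, the adaptor of RIG-I and MDA5, fell by 0.54 ± 0.09 in both cell types, and Ticam1, the adaptor of Tlr3, by 0.50 ± 0.12 in Treg and 0.82 ± 0.12 in Tconv. Ikbke, a kinase upstream of Irf3 and Irf7, fell by 0.66 ± 0.06 in Treg, with -0.04 ± 0.06 in Tconv not called. Of 7 negative regulators 3 were higher and 3 lower in tumour Treg, and 2 were higher and 3 lower in tumour Tconv, against the same shares. Socs1, which blocks Jak kinases, fell by 0.41 ± 0.11 in Treg (adjusted p = 0.00583), with 0.09 ± 0.11 in Tconv not called. Cish rose by 1.12 ± 0.13 and 0.39 ± 0.13, Ptpn6 fell by 1.10 ± 0.11 and 0.94 ± 0.11, and Pias1 fell by 0.48 ± 0.08 and 0.24 ± 0.08.

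Genes better known as targets of interferon-gamma were also higher in the tumour: 13 of 16 in Treg with 0 lower, and 9 of 16 in Tconv with 1 lower, against 32.8% of all tested genes higher in Treg and 26.4% higher and 22.8% lower in Tconv, as above. Their median log2 fold changes were 0.86 and 0.81. Cd274, the ligand of the checkpoint receptor Pdcd1, rose by 1.36 ± 0.10 in Treg and 1.14 ± 0.10 in Tconv, and Gbp3, an interferon-induced GTPase, by 1.25 ± 0.09 and 1.34 ± 0.10. Of 41 tested further interferon-stimulated genes 27 were higher and 4 lower in tumour Treg, and 18 were higher and 8 lower in tumour Tconv, against the same all-gene shares, with medians of 0.53 and 0.21. Ly6a (Sca-1) rose by 2.28 ± 0.18 in Treg, with 0.33 ± 0.17 in Tconv not called, and the interaction was 1.95 ± 0.24 (adjusted p = 0.000175). Ube2l6, the Isg15-conjugating enzyme, rose by 2.00 ± 0.13 and 2.33 ± 0.16. Ifi204, a DNA-binding protein also found in myeloid cells, rose by 5.12 ± 0.39 and 3.96 ± 0.30. Oas1g had 28 and 24 reads in tumour Treg and 6 and 11 reads in tumour Tconv, against 0 to 4 in spleen. The genes Ifit3b, Ifit1bl1, Ifi209, Ifi206 and Ifi213 were not analysed here.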

How the data were processed

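RNA was sequenced from 12 libraries of sorted CD4+ T cells in 6 groups of 2, grouped by the tissue, mouse status and cell type in the labels. Raw counts of reads per gene were deposited as whole numbers that the authors had not scaled, made with STAR and featureCounts on mm10 per the submitters' processing notes. Versions, annotation, strand setting and the treatment of multiply mapped reads are not given in the sources used here. Overlapping, antisense and near-identical genes are therefore uncertain. The libraries were made with a stranded kit, per the labels' protocols.

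Counts were analysed with edgeR 4.0.16 (limma 3.58.1, R 4.3.3). Of 24062 genes, 13509 passed filterByExpr by group, which asks for about 0.453 CPM in 2 libraries; on unscaled CPM, all 38 genes reached that in 2 or more spleen libraries, and Ifitm1 was the only member below it in any library. TMM factors were 0.942 to 1.07. A quasi-likelihood model of 6 group means (6 residual degrees of freedom) gave 7 comparisons and 2 interactions, each a two-sided F test adjusted by Benjamini-Hochberg over all tested genes. CPM use TMM-scaled library sizes. Standard errors (SE) were taken as the absolute log2 fold change over the root of its F. The procedure was tested on simulated data.

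Total counts were 18624132 to 24111546. Averaged over genes above a minimum of reads, the variance between the libraries of a group was 3.45 to 16.4 times that of counting alone. Genes with many reads weigh most in this mean, so it says little of genes with few reads, such as Ifitm1 in spleen. Exonic lengths and overlaps came from GENCODE M21 of the same assembly, which matched all 38 genes. By more than 10% of exonic bases, Trex1, Ifitm2, Rtp4 and Herc6 overlap a gene on the same strand and Ifi35 one on the opposite strand. Promoters came from RefSeq (GRCm38.p6).

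The 38 members, the pathway lists and the tests were chosen with earlier results of these data known. All 38 members are named, with 11 pathway genes fixed by name, of which 1 is not reported here, and up to 3 further genes per pathway list, those with the largest called change in tumour Treg over TB spleen Treg at a mean log2 CPM of at least 1. Results were recomputed with limma-voom, with DESeq2 1.42.0 or only its size factors, with scaling by library size, without the expression filter, on only the groups compared, with a replicate block, at a threshold of 0.01 and without each library in turn. Plots were made in matplotlib 3.10.9.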

Additional observations from a re-analysis of the deposited data

Results flagged for a closer look

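The site change, tumour over TB spleen, differed between Treg and Tconv for 20 of the 38 genes by the interaction test (Treg minus Tconv, log2 scale, edgeR quasi-likelihood test with Benjamini-Hochberg adjustment). Among the sensors and synthetases it was 0.50 for Ddx58, 0.54 for Zbp1, 0.78 for Trex1, 1.05 for Oas2, 1.34 for Oasl1 and 0.86 for Oasl2. Among the IFIT genes it was 0.95 for Ifit1, 0.60 for Ifit2 and 0.96 for Ifit3. In the Isg15 system it was 0.88 for Isg15 and 0.91 for Usp18. Among other effectors it was 1.04 for Bst2, 0.82 for Cmpk2 and 0.67 for Isg20. Of the remaining genes, Trim30a had 0.48, Phf11b 0.90, Ifi35 0.64 and Ifi44 1.33. Ifitm2 at -2.15 and Parp14 at -0.45 ran in the other direction. Adjusted p-values ran from 0.00124 (Usp18) to 0.0359 (Isg20).

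For Ddx58, Ifit2 and Oasl2 the interaction went with a Treg level below the Tconv level in TB spleen and a difference of -0.04 to 0.00 in the tumour. For Isg15, Cmpk2, Zbp1 and Trim30a the spleen difference was between -0.05 and 0.10 and the tumour difference between 0.49 and 0.89. For Ifitm2, TB spleen Treg had 213 and 180 reads, against 31 and 36 reads in TB spleen Tconv.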

How the results depend on the processing

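No called change of a member turned its sign under any alternative run. Members called in tumour Treg over TB spleen Treg numbered 32 to 34 under the other settings and 33 to 35 when each library was left out, and 32 of the 33 calls (all but Samd9l) were kept in every omission. In Tconv the range was 24 to 32 in both kinds of alternative, and 22 of 30 calls were kept; Trex1, Oas1a, Oasl1, Usp18, Parp9, Parp14, Tor3a and Sp100 lost theirs in at least 1 omission. Treg over Tconv calls kept in every omission were 23 of 28 in the tumour, 11 of 17 in TB spleen and 12 of 18 in normal spleen. Library-size scaling moved the all-gene median by -0.16 in Treg and -0.11 in Tconv between tumour and TB spleen. The share of higher among called genes was then 39.8% instead of 53.3% in Treg and 41.5% instead of 53.7% in Tconv, and 66.5% instead of 44.4% and 78.5% instead of 56.5% between TB and normal spleen.

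For TB over normal spleen Treg the members called were 1 at a threshold of 0.01 and 0 to 10 without single libraries, with 795 and 512 to 2711 over all genes (main 2066) and 3670 when only the groups compared were fitted. For Tconv they were 5 with no expression filter, 7 with only the groups compared, 1 at 0.01 and 1 to 4 without single libraries, with 932 over all genes at 0.01 and 751 to 2720 without single libraries (main 2328). The site interaction gave 12 members at 0.01 and 13 to 23 without single libraries, with 1731 and 2161 to 3679 over all genes (main 3337). The interaction of tumour bearing and cell type gave 0 members throughout, and over all genes 184 with no expression filter, 208 with DESeq2, 320 with only the groups compared, 43 at 0.01 and 42 to 221 without single libraries (main 115). The cause was not tested. A group left with 1 library is assumed to vary like the others.

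The labels do not say what a shared replicate number marks, and in normal mice the numbers of title and description disagree. Deviations from group means in the groups compared correlated by -0.06 to 0.26, with the highest value between TB spleen Treg and TB spleen Tconv. Whether libraries of the same number in TB spleen share mice or a batch was not tested. A replicate block over all 12 libraries left 33 members called in Treg and 29 in Tconv between tumour and TB spleen, and 20 in the interaction, and a replicate block over the TB libraries left 33, 28 and 14.

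With 2 libraries a group no single library can be judged an outlier, and depth limits Ifitm1 and Ifnb1, with 0 to 11 and 0 reads in spleen.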

Other observations

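Of the 38 genes, 18 lie in 7 clusters of neighbouring members, and neighbours did not share 1 size of change. The Ifit2, Ifit3 and Ifit1 genes lie within 99.3 kb of chromosome 19, and in tumour Treg over TB spleen Treg their log2 fold changes were 0.59 ± 0.08, 2.57 ± 0.21 and 2.22 ± 0.18. Parp14, Dtx3l and Parp9 lie within 140.0 kb of chromosome 16, where Parp9 rose by 0.67 ± 0.10 and the others were not called. In the pair of Rsad2 and Cmpk2, within 37.1 kb of chromosome 12, Rsad2 changed by 2.72 ± 0.23 and Cmpk2 by 1.59 ± 0.17. Oas2, Oas3 and Oas1a lie within 177 kb of chromosome 5, and in the tumour Oas2 was lower in Treg than in Tconv (-0.63 ± 0.12) while Oas1a was higher (1.91 ± 0.22). No test compared genes with each other.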
